A study of Mus musculus with 24 samples.

Results

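The genes described here are 8 readouts and ligands of bone morphogenetic protein (BMP) signaling: the inhibitors of DNA binding Id1, Id2, Id3 and Id4, the inhibitory Smads Smad6 and Smad7, and the ligands Bmp2 and Bmp4. They were chosen by name, as the probe sets whose platform annotation gives exactly 1 symbol and that symbol is one of the 8. This rule found 12 of the 20380 probe sets with 1 symbol, and 8 of the 12393 genes measured. The rule used no expression value, but the members were chosen with earlier results of these data known.

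The data were 24 expression arrays of MLO-Y4, a mouse osteocyte-like cell line (strain background labelled as C57B1/6 x BALB/c x DBA2), grown on collagen-coated glass slides. Flow cells received 2 h of oscillating fluid flow in parallel plate chambers, with a shear stress of 10 dyn/cm2 at 1 Hz, and sham cells sat in the same kind of chamber without flow. Cells were collected at once (0 h) or after 2, 8 or 24 h in fresh medium, which gave 8 labelled groups of 3 arrays. All groups share the line, the slide coating and the chambers, so that the sham group at each time is the control of the flow group at that time. The line stands for osteocytes only in part. Of 10 measured genes of an osteocyte marker list, 5 had a mean log2 value above 6 over the arrays (Gja1, Pdpn, Cd44, Phex and Col1a1). Dmp1, Mepe, Sost, Fgf23 and Alpl were below it. Col1a1 and Alpl are also osteoblast genes, so neither is counted here as a sign of osteocyte identity or of its lack.

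BMPs are secreted ligands that bind paired type I and type II receptor kinases, which phosphorylate the receptor Smads. These enter the nucleus with Smad4 and bind DNA at target genes, among which the Id genes are classical early targets. Id proteins carry a helix-loop-helix without a DNA binding region and hold E proteins away from DNA. Smad6 and Smad7 are induced by the same pathway and inhibit it at the receptors, and Smad7 is also a target and inhibitor of transforming growth factor beta (TGF-beta) signaling. In bone, BMPs drive osteoblast differentiation, and osteocytes secrete antagonists of BMP and Wnt signals. Id1, Id2, Id3, Smad6 and Smad7 thus serve as transcript readouts of the pathway, whereas phosphorylated Smads were not measured here.

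In the mouse genome (GRCm38.p6), Id1 lies at chr2:152736251-152737410, Id2 at chr12:25093799-25096092, Id3 at chr4:136143822-136145392, Id4 at chr13:48261116-48266028, Smad6 at chr9:63953076-64022085, Bmp2 at chr2:133552159-133562896 and Bmp4 at chr14:46383525-46390669. The start of each gene is where the pathway's Smads could act, so upstream sequence is shown for the Id genes with the widest spread that had an entry and for the 1 member with a palindromic Smad box. Sequences are from RefSeq (GRCm38.p6), in which 5 of the 8 members had a promoter entry (Id2, Id3, Id4, Smad6 and Bmp4). These 4 motifs were searched on both strands from 250 bases before to 50 bases after the start: GTCTAGAC (the palindromic Smad box, held by 0.213% of 32851 promoters), CAGAC (a short Smad-binding element, 49.6%), GGCGCC (a GC-rich Smad element, 11.9%) and TGACG (a cAMP response element core, 20.8%). GTCTAGAC and GGCGCC read the same on both strands, and none of the motifs holds another, although in Id3 a CGTCA (the reverse complement of TGACG) overlaps the first CAGAC. Capitals mark CAGAC or its reverse complement GTCTG in Id3, GGCGCC in Id2 and GTCTAGAC in Smad6.
Id3, chr4:136143572-136143821, plus strand: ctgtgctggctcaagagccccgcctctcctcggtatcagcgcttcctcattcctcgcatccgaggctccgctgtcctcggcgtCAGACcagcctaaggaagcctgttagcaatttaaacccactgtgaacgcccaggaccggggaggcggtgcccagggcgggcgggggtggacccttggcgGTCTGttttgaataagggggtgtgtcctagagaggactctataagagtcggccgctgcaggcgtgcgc
Id2, chr12:25096093-25096342, minus strand: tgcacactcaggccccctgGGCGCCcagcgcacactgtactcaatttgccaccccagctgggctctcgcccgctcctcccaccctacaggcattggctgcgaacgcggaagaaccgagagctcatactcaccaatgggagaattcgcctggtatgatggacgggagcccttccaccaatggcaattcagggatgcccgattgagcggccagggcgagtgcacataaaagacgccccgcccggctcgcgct
Smad6, chr9:64022045-64022074, minus strand: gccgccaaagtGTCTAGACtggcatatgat
The short element is in about every other promoter, so that its matches in Id3 do not set it apart. The palindrome in Smad6 spans the start used by its promoter entry. That start lies inside the gene span given above, which ends at 64022085 on this minus-strand gene. Id4 held GGCGCC and CGTCA, and Bmp4 held none of the 4 motifs. A match is a description of these letters and not a measured binding site.

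Before the comparisons, the arrays have to be described, since their similarity followed the deposited column order more closely than their labels. Over all genes, the array nearest to each array carried the same label for 16 of 24 arrays, whereas it was the adjacent deposited column (columns 1 and 2, 3 and 4, and so on) for 22 of 24. The columns are in label order, so many adjacent columns share a label and these counts overlap. When the arrays were clustered into 3 groups, 6 of the 8 labels fell into more than 1 cluster. One cluster held exactly 6 arrays, in columns 7, 8, 15, 16, 23 and 24. By label these were sham 2 h replicates 1 and 2, sham 8 h replicate 3, flow 8 h replicate 1, and flow 24 h replicates 2 and 3. Groups are taken from the labels alone throughout. A column's place is not a label, no treatment or time is read from it, and values by place are given without a test.

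Of the 8 members, 5 gave signals above the dim range and 3 did not. Mean log2 values over the 24 arrays were 9.34 for Id3 (8.34 to 10.81), 8.78 for Id1 (7.66 to 9.79), 8.42 for Smad7 (7.95 to 9.11), 7.78 for Smad6 (7.12 to 8.57) and 7.26 for Id2 (6.58 to 8.39). Values of different probe sets are not compared with each other as levels. Id4 (4.09), Bmp4 (4.17) and Bmp2 (2.57) stayed below 6 on all 24 arrays, so differences between groups in these 3 genes are differences within the dim range. Thus 5 of the 8 members passed the limit of 6 in at least 3 arrays, as did 7971 of all 12393 genes.

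**Figure D1:**
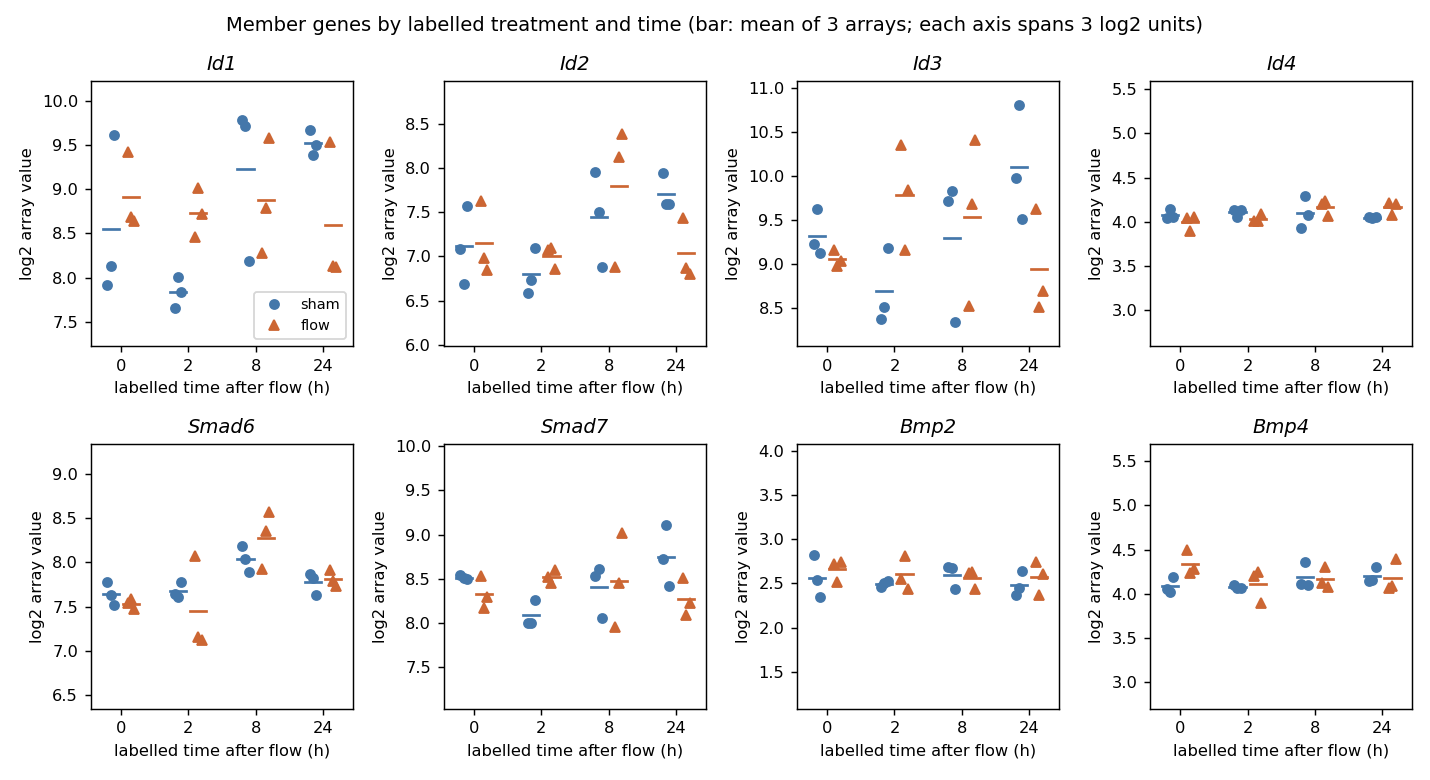
Log2 value of each of the 24 arrays (vertical axis) by labelled time (horizontal axis) and treatment, 1 panel for each member, each point 1 array and each bar a group mean. Flow and sham points of Id1 and Smad7 are apart at 2 h, while at 8 h the points of both treatments overlap.

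Id1, which inhibits differentiation in many lineages, had flow and sham arrays without overlap at 2 h, as did Smad7. Its log2 values were 7.66, 8.01 and 7.83 in sham 2 h and 8.46, 9.02 and 8.72 in flow 2 h. Every flow array was above every sham array. The difference, flow minus sham, was 0.90 on the log2 scale (standard error 0.46, 95% interval -0.06 to 1.85, n = 3 a group), with adjusted p = 0.380 from limma. At 0 h the arrays read 7.91, 8.13 and 9.61 in sham and 9.42, 8.69 and 8.64 in flow. Here sham replicate 3 lay above all flow arrays and the other sham arrays below them, and the difference was 0.36 with adjusted p = 0.761. It was 0.045 without sham replicate 1 and 0.90 without sham replicate 3.

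At 8 h, Id1 was 9.79, 9.72 and 8.19 in sham and 8.28, 8.78 and 9.58 in flow. The difference of -0.35 was smaller than the SD within either group (0.90 and 0.66). At 24 h the arrays read 9.67, 9.39 and 9.50 in sham against 9.53, 8.13 and 8.12 in flow. Flow replicate 1 lay among the sham arrays and the other flow arrays lay lower, with a difference of -0.93 and adjusted p = 0.332. Both of these low arrays belong to the 6 that stood apart, and without those 6 the 24 h difference was 0.011. The sign of Id1 at 24 h therefore rests on them.

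Id3, a target of BMP and serum signals, had the largest differences of all members at both 2 h and 24 h with all arrays in the fit. At 2 h its log2 values were 8.38, 8.52 and 9.19 in sham and 10.35, 9.16 and 9.84 in flow. Flow replicate 2 lay just under sham replicate 3, so the groups overlapped by 1 array. The difference was 1.09 (standard error 0.45, 95% interval 0.15 to 2.03). This interval lies above 0 but is not adjusted for the number of genes, and adjusted p was 0.345 over all genes from limma. At 24 h the arrays read 9.97, 10.81 and 9.52 in sham and 9.63, 8.52 and 8.70 in flow. The difference of -1.15 (standard error 0.45, adjusted p = 0.290) ran the other way. Without the 6 arrays that stood apart, the Id3 difference was 0.60 at 2 h, smaller than that of Id1 (0.90), and -0.47 at 24 h, which left 1 array in sham 2 h and 1 in flow 24 h.

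At the other times Id3 showed little by label. It was 9.23, 9.62 and 9.12 in sham 0 h and 9.16, 8.98 and 9.04 in flow 0 h, a difference of -0.26 with adjusted p = 0.842. At 8 h it was 9.72, 9.83 and 8.34 in sham and 8.53, 9.68 and 10.41 in flow. The groups overlapped, the SDs were 0.83 and 0.95, and the difference was 0.24.

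Id2, an Id gene linked to lineage choice, had small differences at the early times. Its brighter probe set read 7.08, 6.68 and 7.58 in sham 0 h and 7.62, 6.99 and 6.85 in flow 0 h, and 6.58, 6.73 and 7.09 in sham 2 h against 7.08, 7.09 and 6.86 in flow 2 h. The differences were 0.04 and 0.21, both within the spread of the arrays. The 2 h value turned to -0.084 without the 6 arrays that stood apart. At 8 h it was 7.95, 7.51 and 6.88 in sham and 6.88, 8.13 and 8.39 in flow, a difference of 0.35.

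At 24 h, Id2 was 7.94, 7.60 and 7.59 in sham and 7.44, 6.87 and 6.80 in flow. All flow arrays were below all sham arrays, with a difference of -0.68 (standard error 0.33, adjusted p = 0.325), and -0.28 without the 6 arrays. A second Id2 probe set had a wider range (5.98 to 8.95) and differences of -0.18, 0.41, 0.59 and -0.93 over the times in order, so that both probe sets had the same sign at 2, 8 and 24 h and opposite signs at 0 h. On this second probe set the groups overlapped at 24 h, with flow replicate 1 (7.73) above sham replicate 2 (7.62). The remaining Id2 probe set was dim on every array. Id4, with 3 probe sets below 6 on every array, differed by -0.08, -0.07, 0.07 and 0.12 at the 4 times on the brightest of them. The other Id4 probe sets gave -0.04, -0.0015, 0.23 and 0.16, and -0.15, -0.04, 0.08 and -0.14, so that the sign at 24 h was not shared.

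Of the inhibitory Smads, Smad7 followed the signs of Id3 at every time by label. At 2 h it was 8.00, 7.99 and 8.27 in sham and 8.52, 8.46 and 8.60 in flow, without overlap. The difference was 0.44 (standard error 0.21, adjusted p = 0.366). At 24 h it was 8.73, 9.11 and 8.41 in sham and 8.51, 8.09 and 8.23 in flow, where flow replicate 1 lay within the sham range. This difference was -0.48 (standard error 0.21, adjusted p = 0.300). Without the 6 arrays that stood apart, the Smad7 differences were 0.26 at 2 h and -0.24 at 24 h. At 0 h the sham arrays lay close together, at 8.54, 8.50 and 8.49, and the flow arrays lay at 8.54, 8.17 and 8.30, a difference of -0.18. At 8 h, sham was 8.54, 8.62 and 8.06 and flow 7.95, 8.45 and 9.02, and the difference of 0.07 was well inside both SDs (0.30 and 0.54).

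Smad6, the inhibitory Smad more selective for BMP receptors, did not follow Smad7. It was 7.78, 7.63 and 7.52 in sham 0 h and 7.54, 7.58 and 7.47 in flow 0 h. At 2 h it was 7.64, 7.61 and 7.78 in sham and 8.07, 7.16 and 7.12 in flow, so that flow replicate 1 was above and the other flow arrays below every sham array. The differences were -0.11 and -0.22. At 8 h, sham read 8.19, 8.04 and 7.89 and flow 7.92, 8.36 and 8.57, a difference of 0.24, and at 24 h sham read 7.87, 7.83 and 7.64 and flow 7.91, 7.78 and 7.74, a difference of 0.03. Smad6 thus had its highest group mean, 8.28 (SD 0.33, n = 3), in flow 8 h.

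The ligands gave no signal above the dim range in any group. Bmp4 was 4.05, 4.02 and 4.19 in sham 0 h and 4.50, 4.24 and 4.28 in flow 0 h, without overlap, a difference of 0.25 with adjusted p = 0.287. Its differences at the later times lay between -0.02 and 0.04. Bmp2 differed by 0.09, 0.10, -0.04 and 0.09 at 0, 2, 8 and 24 h.

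**Figure D2:**
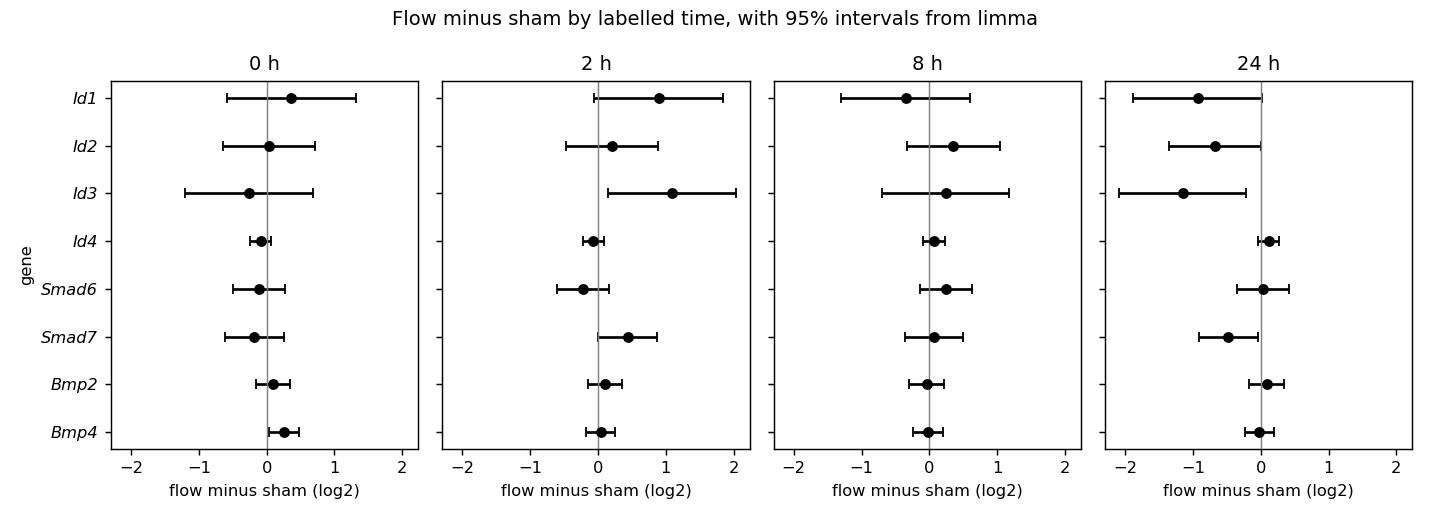
Flow minus sham on the log2 scale (horizontal axis) for each member (vertical axis) at each labelled time, with 95% intervals from limma. Id1, Id3 and Smad7 lie above 0 at 2 h and below 0 at 24 h, and the dim genes Id4, Bmp2 and Bmp4 have narrow intervals that include 0 except for Bmp4 at 0 h (0.25).

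Over the 4 times, 0 of the 8 members passed the adjusted threshold in any flow against sham comparison, and neither did any other gene (0% of 12393 genes at each time). At an unadjusted p under 0.05, 1 member (Bmp4, higher) stood out at 0 h, where 14% of all genes did and 8.42% were higher, and 2 (Id3 and Smad7, higher) at 2 h, where 13.6% did and 5.99% were higher. None did at 8 h, against 14.4% of all genes, and 2 (Id3 and Smad7, lower) did at 24 h, where 15.5% of all genes did and 5.7% were lower. The median difference of the 8 members was -0.02, 0.15, 0.07 and -0.25 at the 4 times, beside 0.010, 0.002, 0.009 and 0.014 over all genes. The flow and sham arrays of 1 member (Bmp4) did not overlap at 0 h, where the same held for 19.1% of all genes. At 2 h this was so for 2 members (Id1 and Smad7) and 18.4% of genes, and at 8 h for 0 members and 12.9%. At 24 h it was so for 2 members (Id2 and Id4, each on its brightest probe set) and 19.8%.

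Whether the flow effect differed among the 4 times was tested with 1 F-test a gene, which does not compare 2 h with 24 h alone. For Id3 this gave adjusted p = 0.113 in limma, for Smad7 0.153, for Id1 0.187 and for Id2 0.334, while 27.3% of all genes had an unadjusted p under 0.05 in the same test. Without flow 8 h replicate 1 the adjusted p was 0.031 for Id3 and 0.036 for Smad7, where 16.5% of all genes passed as well (2045 of 12393), so this 1 array decides on which side of the threshold they fall. A difference at any time gave adjusted p = 0.182 for Id3, 0.234 for Smad7, 0.282 for Id1 and 0.456 for Id2 (23.3% of all genes at an unadjusted p under 0.05, 0% after adjustment). Averaged over the times, the flow effect was near 0 in each of these genes, at -0.004 for Id1 and -0.021 for Id3, and 0 of all genes passed (4.79% at an unadjusted p under 0.05).

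The sham arrays alone varied about as much as the flow effect. From 0 h to 2 h, the sham means of Id1, Id3 and Smad7 differed by -0.72, -0.63 and -0.43, and from 0 h to 24 h by 0.97, 0.77 and 0.24. The sham mean of Id1 was 8.55 (SD 0.93), 7.84 (SD 0.18), 9.23 (SD 0.90) and 9.52 (SD 0.14) in the order of the times. The flow means of Id1 were closer together, at 8.92, 8.73, 8.88 and 8.59. In the test over sham times no member passed, with adjusted p = 0.154 for Id1, 0.206 for Smad7, 0.224 for Id3 and 0.249 for Id2, while 0.412% of all genes did (21.1% at an unadjusted p under 0.05, among them Id1, Id3 and Smad7).

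RNA quality was followed through the 3′ minus 5′ signal of the control probe sets. For beta-actin, this was 0.138 to 0.168 in flow 2 h and 0.191 to 0.262 in sham 2 h, and 0.224 to 0.244 in flow 24 h and 0.150 to 0.203 in sham 24 h. It was thus lower in flow at 2 h and higher in flow at 24 h, without overlap, opposite in sign to Id1, Id3 and Smad7. The same signal of Gapdh overlapped at both times, at -0.196 to -0.154 in flow 2 h, -0.177 to -0.136 in sham 2 h, -0.189 to -0.101 in flow 24 h and -0.172 to -0.133 in sham 24 h. For beta-actin, the 6 arrays that stood apart had values of 0.224 to 0.262, and the other 18 had 0.138 to 0.242, while for Gapdh the 6 arrays (-0.189 to -0.158) lay inside the range of the other 18 (-0.196 to -0.074). The part of RNA quality in the differences of the members was not tested. In RNA from whole slides, fewer cells with a transcript and less of it per cell cannot be told apart.

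Set out in the order of the deposited columns, the members split into those that followed the 6 arrays and those that did not. Id3 was 8.34 to 8.70 (median 8.52) in the 6 arrays and 8.98 to 10.81 (median 9.63) in the other 18, with no overlap. Among all genes, 2.44% had all 6 arrays below the other 18 and 5.07% had them above. The 6 arrays carry 4 labels across both treatments and 3 times. Id1 was 7.66 to 8.28 in them, and 3 of the other 18 arrays lay at or below their highest value. For Id2 (6.58 to 6.88) this number was 3, and for Smad7 (7.95 to 8.23) it was 1. Smad6 was not low there, at 7.61 to 7.92, with 13 of the other 18 arrays at or below 7.92.

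**Figure D3:**
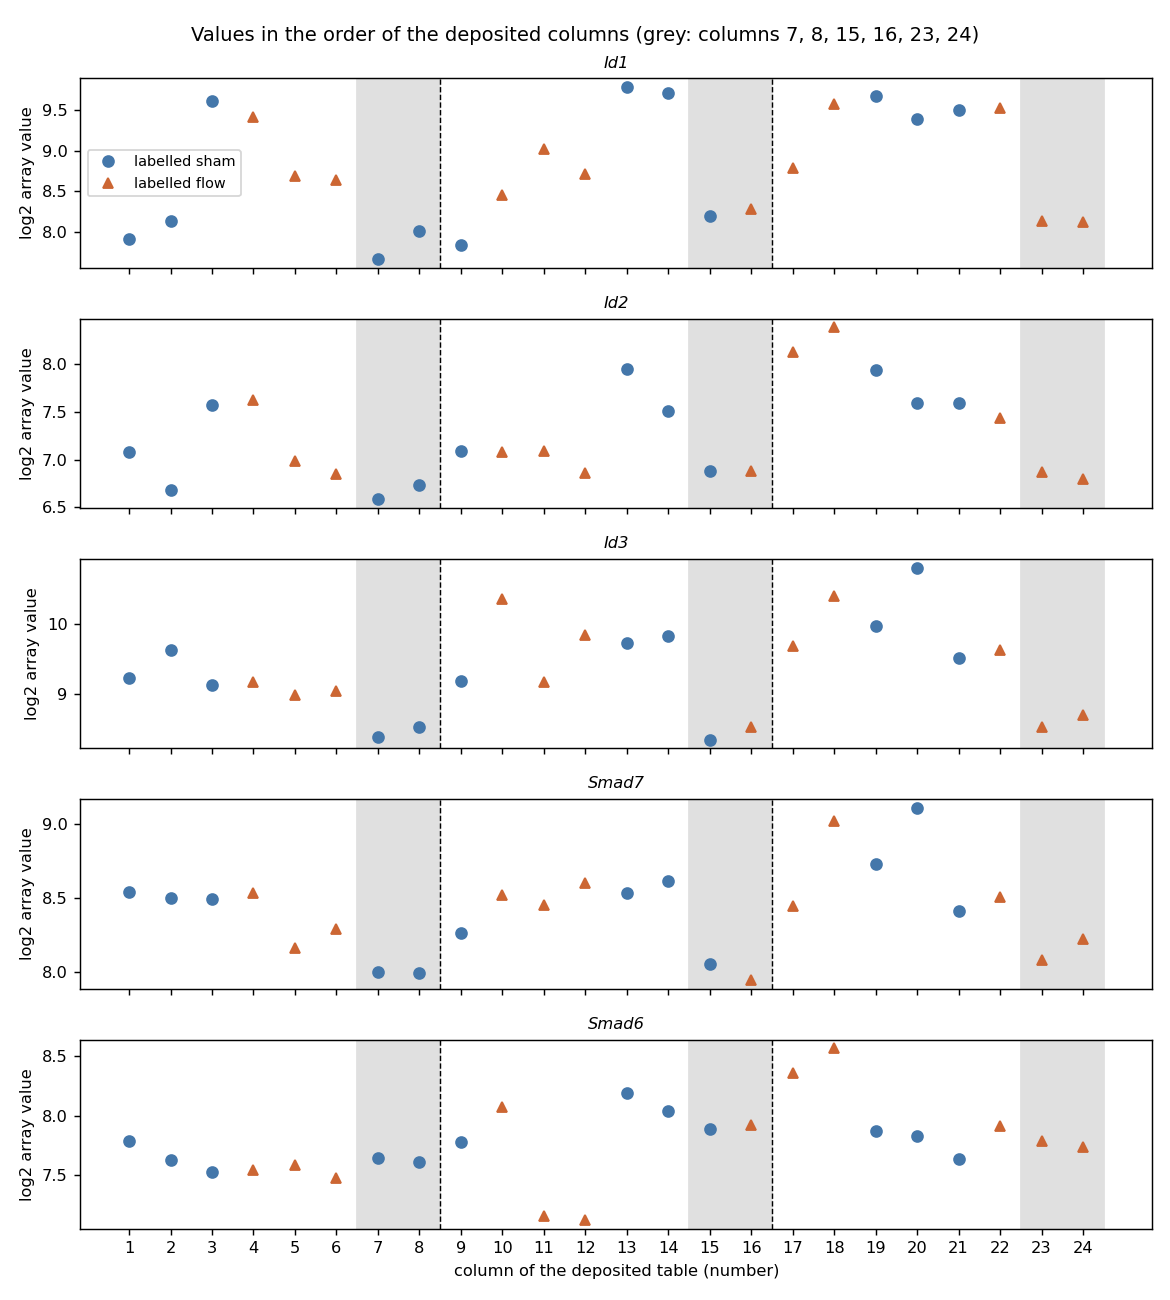
Log2 value of the members (vertical axis) against the deposited column of each array, 1 to 24 (horizontal axis), with points coloured by labelled treatment. Id3 dips to between 8.34 and 8.70 at columns 7, 8, 15, 16, 23 and 24, and Id1, Id2 and Smad7 are low at the same columns.

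Adjacent columns were also unlike in a regular way for Id3. The even column was above the odd column of its pair in 12 of 12 pairs, by 0.04 to 1.16 (median 0.18). In columns 3 and 4, 9 and 10, 15 and 16, and 21 and 22, the odd column is labelled sham and the even column flow of the same time. In every other pair both columns carry the same label. Columns 1 and 2, 9 and 10, and 17 and 18 differed by 0.40, 1.16 and 0.73, and columns 3 and 4, 11 and 12, and 19 and 20 by 0.04, 0.68 and 0.83. The remaining pairs differed by at most 0.19. Among all genes, 16 (0.129%) were higher in the even column of every pair, and of these Id3 had the second largest median difference after the chemokine gene Cxcl2 at 1.06. Another 20 genes (0.161%) were lower in every pair. Smad7 was higher in 9 of 12 pairs, Id1 in 6, Smad6 in 5 and Id2 in 4.

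**Figure D4:**
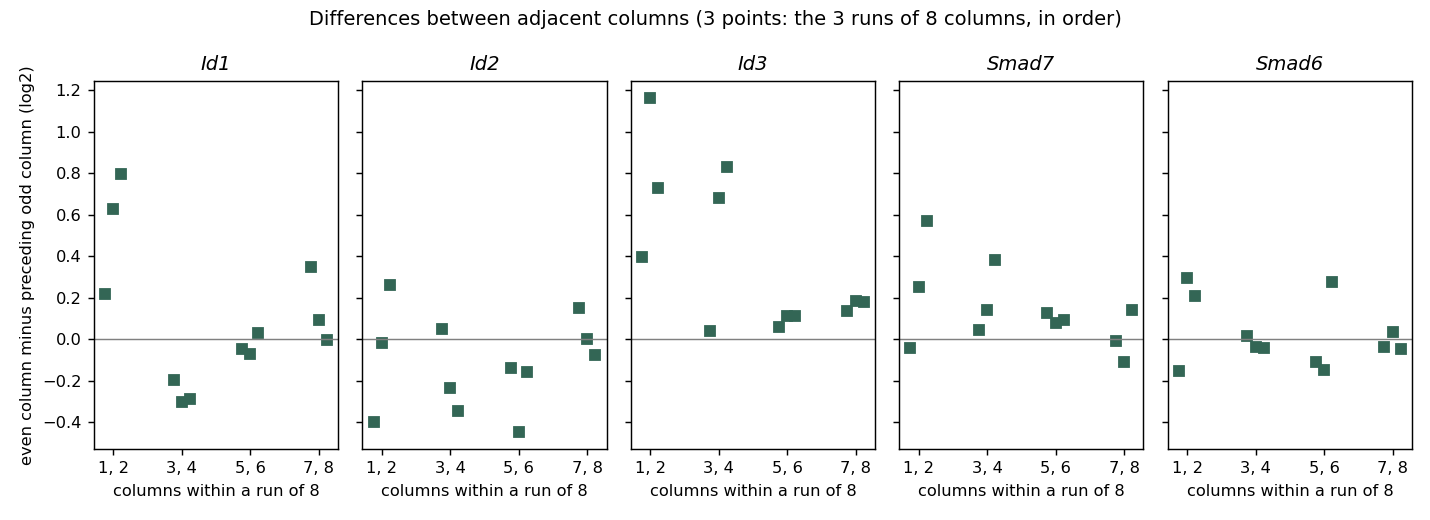
Difference of the even minus the odd column (vertical axis, log2) for the 12 pairs of adjacent deposited columns (horizontal axis), 1 panel for each bright member. All 12 Id3 points lie above 0, at 0.04 to 1.16, while those of Id1, Id2 and Smad6 lie on both sides.

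Arrays 8 columns apart were also more alike than arrays of 1 label for some members. The pooled SD within sets of columns 8 apart was 0.43 for Id3, 0.49 for Id1 and 0.20 for Smad7, against 0.61, 0.62 and 0.28 within labels. For Id2 (0.49 against 0.44) and Smad6 (0.32 against 0.24) labels held the smaller spread. A smaller SD within the sets of columns was seen in 65.5% of all genes, with a median ratio of 0.914, and the ratio was 0.71 for both Id3 and Smad7. No such set holds 2 arrays labelled alike.

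For the 5 members with a range of at least 1, the genes with the most similar course over the 24 arrays were found by the mean absolute difference after centring each gene. For Id1 these were Fbln2 (0.363), Id2 (0.366) and Ccn2 (0.369), beside a median of 0.633 over the genes above the dim limit. For Id3 they were Ereg (0.269), Tnf (0.290) and Has2 (0.293), an epidermal growth factor family ligand, a cytokine and a hyaluronan synthase (median 0.563). Id2 was nearest to Ank (0.229), Col5a1 (0.252) and St3gal1 (0.253), with a median of 0.441. Smad6 was nearest to Irs1 (0.167), Cd248 (0.170) and Prrx2 (0.177), with a median of 0.272. Smad7 was nearest to Map7d1 (0.116), Nudt19 (0.116) and Mapkapk2 (0.121), with a median of 0.260. The genes nearest to Smad6 had ranges of 0.91 to 1.11 against its 1.44, and those nearest to Smad7 0.69 to 0.79 against 1.16. Smad6 and Smad7 differed from each other by 0.307, more than either median. These are descriptions over arrays that share the structure given above.

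The rest of the pathway was described through lists of genes, and no gene of any list passed the adjusted threshold for flow against sham at any time. Of 11 measured ligands, 3 were above the dim limit, and Bmp6 had the smallest p, with dim differences of 0.09, 0.22, 0.07 and 0.09. Of 9 receptors and co-receptors, Tgfbr3 (betaglycan, -0.37, 0.21, 0.18 and -0.24, dim) and the type I receptor Bmpr1a (-0.32, -0.04, 0.30 and -0.00) had the smallest p over the times. For Bmpr1a the adjusted p was 0.238 at 0 h and 0.261 at 8 h. Among 12 Smads and cofactors, 11 had a higher flow mean at 8 h (median 0.21) and 2 at 0 h (median -0.17), where 52.6% and 53.1% of all genes did. The transcription factor Hivep2 (-0.17, 0.31, 0.34 and -0.27) and the corepressor Ski (-0.24, 0.06, 0.34 and -0.12) led that list.

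Of the antagonists, Grem1 at 0 h gave the largest single difference. Larger ones lay in other lists, among them Tob1 at 8 h (0.65), Nedd4l at 0 h (-0.76), Junb at 24 h (-0.76) and Ccn2 at 2 h (1.03). Among 15 antagonists the secreted Grem1 had differences of -0.61, 0.20, -0.05 and -0.45, and Twsg1 of -0.24, 0.01, 0.22 and 0.01. Grem1 was also the 1 list gene that passed the F-test over sham times (adjusted p = 0.037), with sham means of 11.84 (SD 0.24), 11.27 (SD 0.29), 11.17 (SD 0.05) and 11.01 (SD 0.22) in the order of the times. Grem1 sham arrays at 0 h were 11.94, 12.01 and 11.57, above all 3 sham arrays at 24 h (11.22, 11.03 and 10.79). Leaving out single sham arrays moved its adjusted p between 0.008 and 0.166. It was past the threshold no longer without sham 0 h replicate 1 (0.144) or replicate 2 (0.166), sham 2 h replicate 2 (0.053), sham 8 h replicate 1 (0.055) or replicate 2 (0.057), or sham 24 h replicate 2 (0.098). With the sham arrays fitted alone its adjusted p was 0.134, and with the replicate block 0.062. Between sham 0 h and sham 24 h alone, where 0.339% of all genes passed, 2 list genes were lower at 24 h, Grem1 with a difference of -0.83 (adjusted p = 0.010 from limma) and the receptor Smad Smad5 with one of -0.70 (standard error 0.14, adjusted p = 0.030). Smad5 was 7.46, 7.35 and 6.91 in sham 0 h and 6.48, 6.60 and 6.55 in sham 24 h, without overlap. Its adjusted p lay between 0.005 and 0.198 with 1 of these 6 arrays left out, and it passed only without sham 0 h replicate 3. For Grem1 this range was 0.004 to 0.080, and it no longer passed without sham 0 h replicate 1 or 2 or sham 24 h replicate 2.

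Among 7 genes of Smad turnover, the ubiquitin ligases Nedd4l (-0.76, 0.38, 0.52 and -0.56) and Wwp1 (0.35, -0.08, -0.29 and 0.10) had the smallest p, and their signs were opposite at every time. Of 14 other BMP target genes, Junb (-0.42, 0.52, 0.58 and -0.76) and Dlx3 (-0.01, 0.54, 0.34 and 0.33) led. The E proteins Tcf4 (-0.31, -0.15, 0.38 and 0.02) and Tcf12 (-0.07, -0.14, 0.14 and 0.02) are partners that Id proteins hold. Tcf4 had an unadjusted p under 0.05 at 0 h (lower) and 8 h (higher), with adjusted p = 0.274 and 0.230 from limma, and not at 2 h or 24 h, while Tcf12 had none. All 6 measured TGF-beta target genes had a higher flow mean at 2 h (median 0.21), where 50.5% of all genes did. Ccn2 was at 1.03 and Pmepa1 at 0.79, both with adjusted p = 0.345 from limma. The list medians at 0, 8 and 24 h were -0.07, 0.07 and 0.03, with Ccn2 at -0.55 and Pmepa1 at -0.11 at 24 h. From sham 0 h to sham 2 h the list median was -0.31, beside -0.0003 over all genes.

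The median difference was also taken over all measured genes of each list. Over 0, 2, 8 and 24 h in turn they were -0.04, 0.05, 0.18 and -0.04 for the receptors, -0.03, 0.09, 0.08 and -0.03 for the antagonists, and 0.01, 0.11, 0.09 and 0.03 for the other BMP target genes. For Smad turnover they were 0.05, -0.08, -0.03 and 0.07, and for the E proteins -0.07, -0.14, 0.14 and 0.02. The ubiquitin ligases Smurf1 and Smurf2 and the transcription factor Runx2 were not analysed here.

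**Figure D5:**
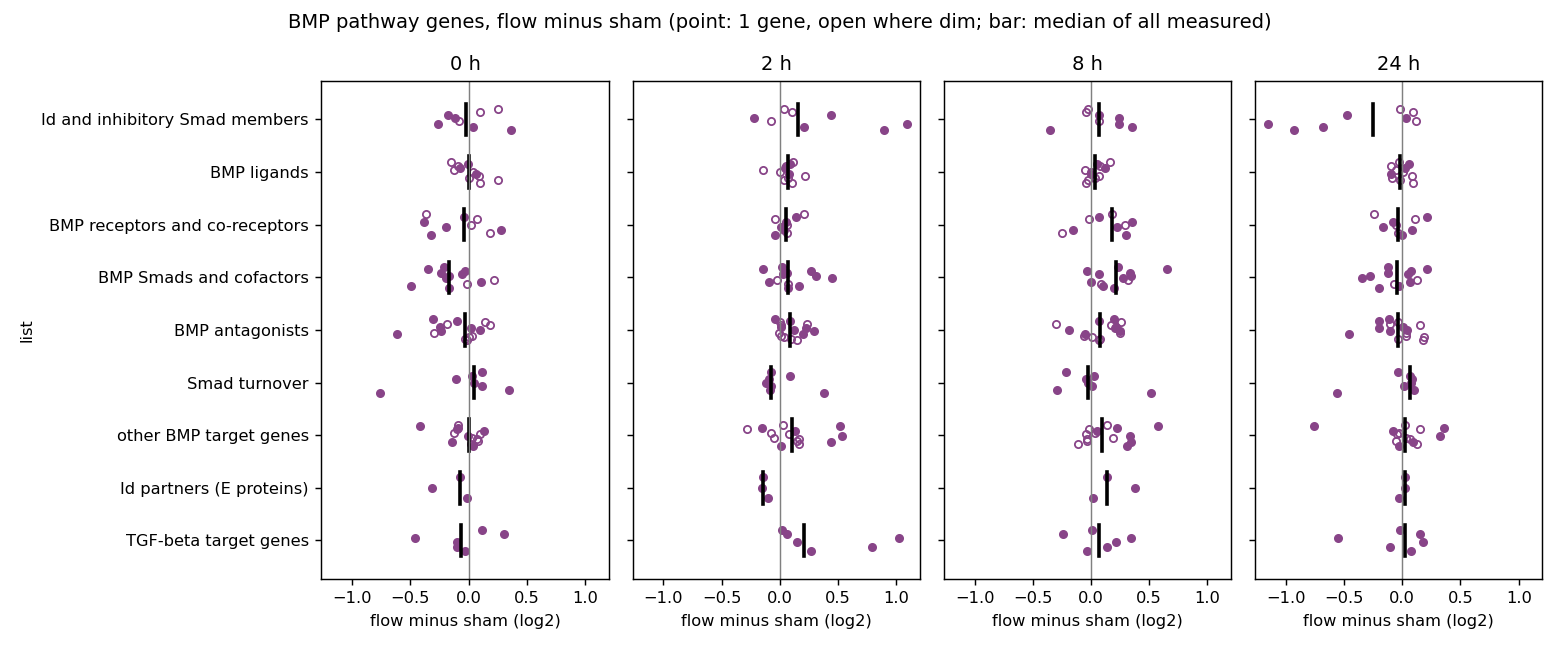
Flow minus sham on the log2 scale (horizontal axis) for the genes of each pathway list (vertical axis) at each labelled time, each point 1 gene, open where dim, with bars at the median of all measured genes. The Smads and cofactors lie mostly above 0 at 8 h (median 0.21) and below 0 at 0 h (median -0.17).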

How the data were processed

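MLO-Y4 cells were measured on Affymetrix arrays, and the deposited log2 values were made by the authors with RMA per the submitters' processing notes. The RMA version is not given in the sources used here. Array medians lay between 6.71 and 6.80, so all 24 arrays were used as deposited, and their number limits the precision. Symbols came from the platform annotation, updated through Entrez numbers in RefSeq (GRCm38.p6). The probe set with the highest mean stood for a gene, which gave 12393 genes from 22690 probe sets, and 64 control probe sets were left out. Groups came from the labels. limma 3.58.1 (R 4.3.3) fitted 1 mean for each of 8 groups, with Benjamini-Hochberg adjustment over all genes and a threshold of 0.05. A gene was dim unless it reached a log2 value of 6 in 3 arrays. The scripts were tested on simulated data. Named genes were the 8 members, the 2 genes of each list with the smallest p over the times, genes of a list that passed a test, and the 3 genes nearest to each member. The members and lists were chosen with earlier results of these data known. Separate cultures are not stated for arrays that share a label, so p-values measure only the spread between arrays, which may be technical. Alternatives covered normalization, the dim filter, probe set averaging, the replicate block, moderation and left-out arrays.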

Additional observations from a re-analysis of the deposited data

How the results depend on the processing

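Over the alternatives other than left-out arrays, 358 single values of the members and Grem1 kept their side of the threshold. The log2 differences among them also kept their sign. Values that did not are given here or beside the result. This count is no measure of stability. The dim filter, the replicate block, moderation and fits of 1 comparison alone leave a member's log2 difference as it is. With all arrays, no member passed the threshold to begin with. Sizes could still change, as for Id3 at 2 h, from 1.09 to 0.60 without the 6 arrays that stood apart. Counts of genes at an unadjusted p under 0.05 were 1729, 1681, 1781 and 1921 for flow against sham at 0, 2, 8 and 24 h, 2891 at any time, 594 for the mean over times, 3387 for the difference between times and 2619 over sham times. At 2 h, 1 gene passed after arrays were centred on their median and 1 after a gene's probe sets were averaged. Replicate numbers revealed no pairing of the arrays (correlations -0.346 to 0.192, over 0.1 in 2 of 12 pairs). The paper describes its sham controls as paired, and these correlations cannot show that flow and sham cultures were unpaired. With the replicate block, 0 genes passed in every flow against sham test, and 18 over sham times in place of 51, where the sham arrays alone gave 19. Removing the 6 arrays that stood apart, chosen after seeing the data, gave 4 genes at 0 h, 866 at 8 h, 140 at any time and 468 for the difference between times, none of them one of the 5 bright members, and turned Id2 at 2 h to -0.084 and Id1 at 24 h to 0.011. The cause was not tested. Leaving out 1 array gave 0 to 117 genes at 2 h, highest without sham 2 h replicate 3, 0 to 672 at 8 h, highest without flow 8 h replicate 1, and 0 to 278 at 24 h, highest without sham 24 h replicate 3. Without sham 8 h replicate 3 it was 301 at 8 h, and without flow 24 h replicate 1 it was 2 at 24 h. It gave 0 to 1394 at any time and 0 to 2045 for the difference between times, both highest without flow 8 h replicate 1 (for the latter also 1708 without sham 2 h replicate 3, 1027 without flow 0 h replicate 1, 976 without sham 24 h replicate 3 and 495 without sham 8 h replicate 3, and for the former 689, 396 and 96 without sham 2 h, 24 h and 8 h replicate 3), 14 to 410 over sham times, lowest without sham 24 h replicate 2 and highest without sham 2 h replicate 3, and 0 at 0 h and for the mean over times. With 1 array left out, Id2 at 0 h ranged from -0.20 to 0.27, Id3 at 8 h from -0.24 to 0.74, Smad7 at 8 h from -0.20 to 0.33 and Smad6 at 24 h from -0.037 to 0.079, so that these signs rest on single arrays. Among dim genes, Id4 ranged from -0.014 to 0.16 at 8 h, Bmp2 from -0.017 to 0.22 at 0 h, -0.0032 to 0.18 at 2 h and -0.12 to 0.024 at 8 h, and Bmp4 from -0.026 to 0.15 at 2 h, -0.092 to 0.063 at 8 h and -0.13 to 0.038 at 24 h. Id1 ranged from 0.045 to 0.90 at 0 h, 0.75 to 1.03 at 2 h, -0.87 to -0.049 at 8 h and -1.40 to -0.69 at 24 h. Id3 ranged from 0.81 to 1.40 at 2 h and from -1.49 to -0.80 at 24 h. The dim filter removed Id4, Bmp2 and Bmp4 from the test.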
